A study of Homo sapiens with 16 samples.

Results

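Cells that carried a scrambled short hairpin, a delivery control aimed at no gene, were compared with untreated cells of the same line, A549, derived from a human lung adenocarcinoma. Genes were taken where the deposited tables list a value for all 3 control samples, which gave 9012 of the 12587 gene symbols in the series. Of these, 8378 had a mean of at least 1 TPM (a read count divided by gene length and brought to the same sum in every library) in both assays and were analysed. The study profiled ribosomes in 8 A549 samples with or without depletion of METTL16 or eIF4E2, and each sample has 1 footprint library and 1 input library. The controls are 2 scramble hairpin samples, called scramble 1 and scramble 2 after their labels, and 1 sample labelled as having no treatment. All 3, like the other 5 samples, had 2 h in fresh medium and then 5 min of cycloheximide at 100 µg/mL, the drug that halts elongating ribosomes, and the libraries hold footprints of about 30 nt and input fragments of 40 to 60 nt. The series text speaks of an sgNS group and of no untreated cells, whereas the label of this sample gives no treatment and its column code is WT, and the name untreated follows the label. The hairpin sequence, vector, selection and time since delivery, and whether both scrambles carry the same hairpin, were not given by the sources used here. Each control stands in a table of its own, scramble 1 beside the shM16 knockdown, scramble 2 beside the sheIF4E2 knockdowns and the untreated sample beside the sgM16 clones, so hairpin delivery and table cannot be told apart. Nothing says that the scramble samples came from separate cultures, so p-values measure only the spread between these samples.

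A short hairpin is transcribed in the cell, exported by exportin 5, trimmed by Dicer and loaded into an Argonaute protein, which it guides to matching mRNAs. Double-stranded RNA that the cell senses as foreign can set off interferon and NF-kB genes and, through the kinase PKR, hold back translation. In ribosome profiling, nuclease leaves the short mRNA stretches that ribosomes cover (footprints), the fragmented RNA of the same cells (input) stands for mRNA abundance, and footprints divided by input give the translation efficiency (TE).

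Reads in listed genes numbered 462611 to 552100 in the 3 input libraries, and 196995 (scramble 2) to 571482 (scramble 1) in the footprint libraries. The median gene had 18 to 21 reads in input but only 7 in the scramble 2 footprints. Of 9 genes chosen as A549 markers, 8 were listed in all 3 controls, and 13 of 14 markers of other cell types were listed in none. Being listed takes only 1.00 TPM in input. In untreated input CDH1 stood near that floor at 1.25 TPM, as did EPCAM at 1.04 TPM, which scramble 2 does not list. Values were put on a log2(TPM + 1) scale and each library was centred on its median gene, because those medians ran from 3.68 to 4.06 in input and from 2.74 to 3.41 in footprints. All differences below are log2 units of scramble minus untreated on that centred scale, and levels in TPM are always given in the order untreated, scramble 1, scramble 2. These levels were scaled within each library and come from tables that were listed separately. In that order, listed genes held 35.1%, 27.6% and 17.5% of the TPM total in footprints and 45.7%, 49.8% and 48.8% in input. Footprint levels of the scrambles therefore stand lower beside untreated as deposited than on the centred scale. In these bulk libraries fewer cells of a type and less RNA per cell cannot be told apart.

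Beside untreated cells, both scrambles stood higher in CYP1B1, MMP7, GPX2 and the ER chaperone gene HSP90B1, and lower in most histone and ribosomal protein genes. ER chaperone genes as a list stood higher mainly in scramble 1. However, no gene passed the test in either assay or in TE. limma, with the lone untreated sample assumed to vary like the scramble pair, called 0 of 8378 genes higher and 0 lower (0% each) in input, in footprints and in TE, at lowest adjusted p values of 0.858, 0.989 and 0.999. At an unadjusted p under 0.05 it counted 267 genes higher and 93 lower in input, 186 and 143 in footprints, and 85 and 98 in TE, and voom on reads recovered from the TPM steps also called 0 in each. With 2 samples against 1 there are 3 relabellings, so permutation cannot reach 0.05 for a single gene. The smallest one-sided permutation p, doubled, is 0.667. What follows therefore describes sizes. A gene was counted by size where both scramble samples lay at least 1 log2 unit from the untreated sample on the same side. By that rule 373 genes were higher (4.45% of those analysed) and 173 lower (2.06%) in input, 264 higher (3.15%) and 205 lower (2.45%) in footprints, and 490 higher (5.85%) and 488 lower (5.82%) in TE. Centring sets the balance of these counts: with TPM as deposited they became 791 and 52 in input, 69 and 1078 in footprints, and 71 and 1958 in TE. The median change of all genes was -0.08 in input and -0.06 in footprints with centring, against 0.16 and -0.60 without it.

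Scramble 2 was closer to the untreated sample than to scramble 1. Across the 8378 genes the differences between scramble 1 and scramble 2 had an SD of 0.80 in input, between scramble 1 and untreated 1.03, and between scramble 2 and untreated 0.63. In footprints the same 3 SDs were 0.91, 0.90 and 0.79, and in TE they were 1.01, 1.08 and 0.94. Scramble 1 was nearer to scramble 2 than to the untreated sample in input and TE, and about as far from both in footprints. Read counting alone would give SDs of 0.43 to 0.45 in input and 0.41 to 0.51 in footprints. Among the 7989 genes analysed that all 8 samples list, scramble 1 lay nearest to shM16, the knockdown of its own table, with an SD of 0.62 in input and 0.60 in footprints. Scramble 2 input lay nearest to the sgM16 clones (0.55 and 0.56) and next to the sheIF4E2 knockdowns of its table (0.58 and 0.60). Its footprints lay nearest to the untreated sample (0.77), with 0.81 and 0.78 to those knockdowns. Untreated input lay nearest to the sheIF4E2 knockdowns of another table (0.57 and 0.58), with 0.63 and 0.62 to the clones of its own, while untreated footprints lay nearest to sgM16 clone 1 of their table (0.52). Taken alone, scramble 1 had 1394 genes at least 1 log2 unit higher and 1440 lower than untreated in input, and scramble 2 had 503 and 389. In footprints those counts were 1090 and 819 for scramble 1 and 659 and 780 for scramble 2. Both scrambles share the untreated library, so the counts stand side by side with no measure of agreement drawn from them. Genes at least 1 log2 unit higher in one scramble and as much lower in the other numbered 11 in input, 55 in footprints and 85 in TE.

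**Figure D1:**
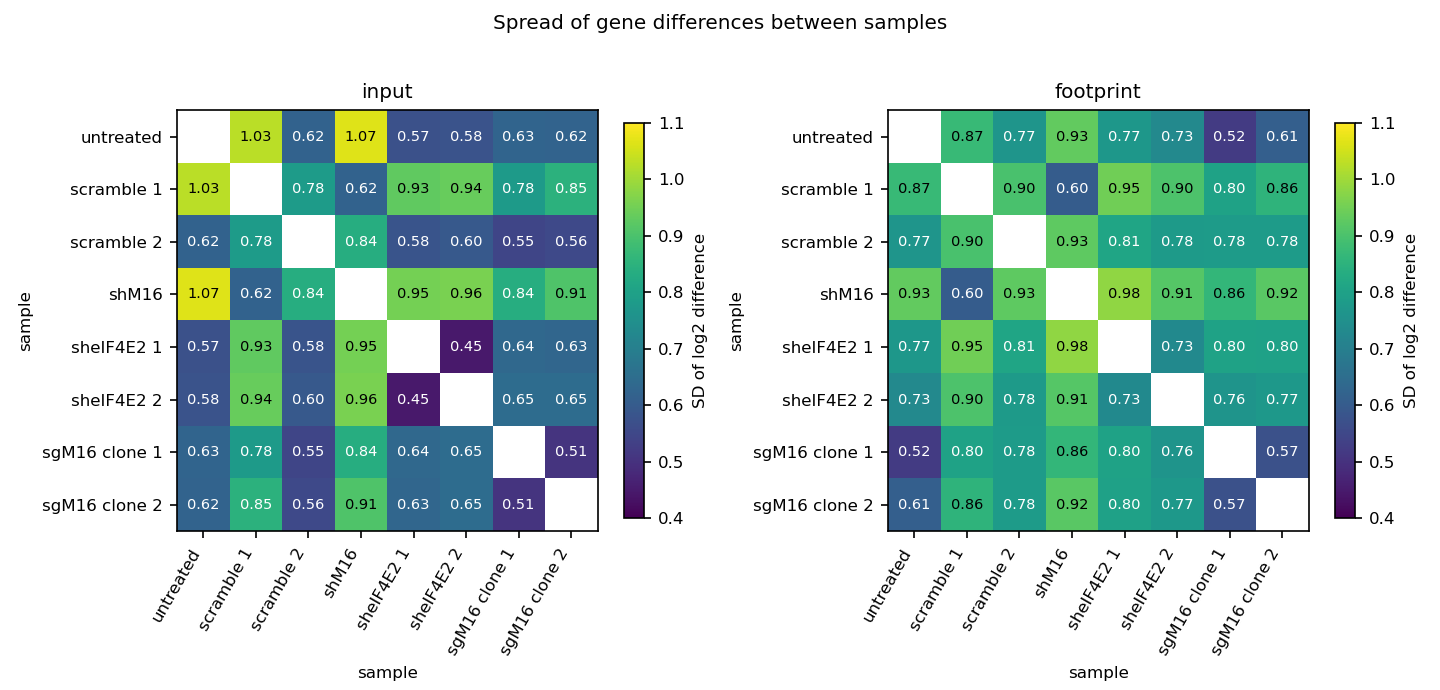
SD of the log2 differences across 7989 genes between every pair of the 8 samples, in input and in footprints (colour and printed value, log2 units). Scramble 1 and shM16, which share a table, have SDs of 0.62 and 0.60, while the untreated sample and scramble 1 have 1.03 and 0.87.

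In input, the genes highest over untreated cells in both scrambles included a cytochrome P450, an inducible cyclooxygenase, a matrix protease and several mRNAs whose footprints were not higher. CYP1B1 (chromosome 2, 38067509 to 38076151 in GRCh38.p14), a cytochrome P450 whose transcription the aryl hydrocarbon receptor drives, had input levels of 8.89, 148 and 67.0 TPM on 21, 303 and 140 reads. Both scrambles were far above the untreated sample and scramble 1 was the highest, with a pair mean of 3.11 (SE 0.77, limma adjusted p = 0.858). The sgM16 clones, which share the untreated sample's table, had CYP1B1 input at 76.8 and 64.7 TPM, and the sheIF4E2 knockdowns, which carry a hairpin, only 16.04 and 12.5. PTGS2, the inducible cyclooxygenase 2, had 2.77, 180.1 and 24.03 TPM, so that scramble 1 stood far above the others, and shM16 was alike at 236 TPM. Its pair mean was 3.92 (SE 1.58, limma adjusted p = 0.858), and scramble 2 alone lay 2.35 above untreated against 5.49 in scramble 1. MMP7, the secreted protease matrilysin, had 4.37, 92.0 and 29.6 TPM on 4, 73 and 24 reads. MTUS1, a microtubule-associated protein, had 3.37, 44.5 and 25.8 TPM on 16, 183 and 108 reads. Here the untreated sample and the clones (6.14 and 3.72 TPM) stood low, and all 5 hairpin samples were above them.

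CALD1 (chromosome 7, 134711499 to 134970729), which encodes the actin-binding protein caldesmon, had input levels of 1.03, 23.8 and 15.4 TPM on 4, 80 and 53 reads. The pair mean was 3.07 (SE 0.66, limma adjusted p = 0.858), and by reads the ratios to untreated were 21.6 (interval 8.12 to 81.3) and 11.5 (interval 4.24 to 43.8), with 95% exact (Clopper-Pearson) intervals that cover counting error only. CALD1 footprints were 14.1, 13.3 and 8.33 TPM, where the 3 controls lay close together. The input value of the untreated sample was also the lowest of all 8 samples, with 7.27 and 12.3 TPM in the clones. The same held in input for ZNF146, a zinc finger protein (5.50, 56.4 and 44.9 TPM), PRKAA1, a catalytic subunit of AMP-activated kinase (1.93, 15.6 and 16.2 TPM), and PUM3, an RNA-binding protein of the Pumilio family (3.94, 34.1 and 26.7 TPM). BCAS2, a spliceosome component, had 1 read in untreated input against 6 and 10 in the scrambles, and GOLGA5, a Golgi coiled-coil protein, had 4, 20 and 24 reads. The size rule selects genes in which the untreated library is low, so its low place among the 8 samples follows in part from the choice. The part of the untreated library in these differences was not tested.

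Genes lower in input included enzymes of mitochondria and tRNA and a death regulator, at middling levels. GFER, a sulfhydryl oxidase of the mitochondrial intermembrane space, had 28.1, 4.33 and 8.49 TPM and a pair mean of -2.27 (SE 0.78, limma adjusted p = 0.858). CTU2, an enzyme of tRNA thiolation, had 38.8, 6.64 and 15.5 TPM. BOK, a member of the BCL2 family, had 29.3, 6.54 and 11.8 TPM. For all 3 both scrambles lay below the untreated sample, as the choice of these genes requires, and scramble 1 was the lower of the pair. CCDC22, a subunit of the endosomal commander complex, had 29.3, 5.83 and 10.3 TPM, and FHL3, a LIM domain protein, had 26.5, 5.83 and 11.4 TPM. The rule also named BLOC1S1, MOSPD3, TMEM256, FAM207A and MZT2A, whose pair means lay between -2.05 and -1.73.

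In footprints, the largest values on the higher side belonged to a glutathione peroxidase, secreted and membrane proteins and a chemokine. GPX2 (chromosome 14, 64939158 to 64942745), a selenium-containing glutathione peroxidase and a known target of the oxidative stress factor NRF2, had footprint levels of 16.5, 93.7 and 145 TPM on 11, 90 and 69 reads. Both scrambles were well above the untreated sample, and scramble 2 was the highest. The pair mean was 3.29 (SE 0.60, limma adjusted p = 0.989), and the read ratios were 7.53 (interval 4.01 to 15.6) and 14.1 (interval 7.39 to 29.5). GPX2 input was 23.7, 144 and 113 TPM, again higher in both scrambles. In the other samples GPX2 input stood at 108 TPM in shM16 and at 154 and 205 in the sheIF4E2 knockdowns, but at 1.45 TPM in clone 1, and clone 2 does not list it. All 5 samples with a hairpin were thus above the 2 listed samples without one, and the tables split the same way.

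The GPX2 promoter is shown because it holds a match to the core of the antioxidant response element, the site that NRF2 is known to bind. The window runs from 250 bases before to 50 bases after the RefSeq start, on GRCh38.p14 (chr14:64942696-64942995, minus strand), and capitals mark the match to TGACNNNGC, which here lies on the opposite strand. Both strands were searched, and 13.6% of 27305 RefSeq promoters hold this short motif, so a match is common.

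GPX2: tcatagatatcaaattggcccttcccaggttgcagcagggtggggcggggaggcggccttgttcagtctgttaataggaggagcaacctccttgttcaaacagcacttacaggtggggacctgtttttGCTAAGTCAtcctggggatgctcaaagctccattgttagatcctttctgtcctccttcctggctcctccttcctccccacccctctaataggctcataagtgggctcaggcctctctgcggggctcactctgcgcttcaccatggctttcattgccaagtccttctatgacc

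Of the 22 NRF2 target genes analysed that have a promoter entry, 7 hold the motif. The list as a whole did not follow GPX2: of 32 NRF2 targets analysed, 0 passed the test, and in input 7 were higher and 19 lower than untreated in both scrambles, at any size. Over all genes 33.6% were higher and 40.5% lower in input by that count, and 29.9% and 35.4% in footprints. The pair-mean median of the NRF2 list was below 0 in both assays (-0.33 and -0.14), and quantile normalization turned it to 0.17 and 0.15. SRXN1, which encodes sulfiredoxin, had footprints of 50.6, 14.2 and 12.5 TPM, below untreated in both scrambles, while ABCC2, an export pump for glutathione conjugates, had 31.2, 102 and 33.4 TPM. AKR1C1, a reductase with near-identical relatives whose reads may be shared, had input of 41.9, 23.7 and 27.1 TPM.

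HKDC1, a member of the hexokinase family, had footprints of 3.72, 32.9 and 15.7 TPM, and the pair mean was 2.87 (SE 0.64, limma adjusted p = 0.989). OLFML3, a secreted olfactomedin-like protein, had 5.57, 49.2 and 21.3 TPM, and IGSF8, an immunoglobulin superfamily membrane protein, had 1.73, 21.7 and 8.52 TPM on 2, 36 and 7 reads. In these 3 genes the input of the controls lay closer together, at 9.77, 9.02 and 11.1 TPM for IGSF8. APOE, the lipid carrier apolipoprotein E, had footprints of 3.13, 79.0 and 7.32 TPM, and CXCL5, a neutrophil-attracting chemokine, had 8.29, 58.3 and 22.02 TPM. Scramble 1 was above scramble 2 in both, and also in SLC16A6, a monocarboxylate transporter family member (1.11, 39.6 and 3.11 TPM). MMP7 footprints were 11.6, 120.4 and 31.3 TPM on 12, 179 and 23 reads, in the same order as its input.

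On the lower side of the footprints, SNRPG (chromosome 2, 70281362 to 70293740), the Sm protein G of spliceosomal snRNPs, had 53.4, 2.65 and 5.37 TPM on 42, 3 and 3 reads and a pair mean of -2.96 (SE 0.62, limma adjusted p = 0.989). Its read ratios were 0.0657 (interval 0.0130 to 0.206) and 0.160 (interval 0.0317 to 0.501), and its input was 84.7, 41.4 and 61.7 TPM. SNRPG footprints as deposited were 16.2 and 6.45 TPM in the sheIF4E2 knockdowns and 26.4 and 19.7 in the clones. The footprint medians of those knockdown libraries were also lower, at 3.06 and 2.90 against 3.22 and 3.24. OST4, a very small subunit of the oligosaccharyltransferase, had footprints of 599, 122 and 116 TPM, and TMEM14A, a small membrane protein, had 84.1, 12.6 and 12.8 TPM. For TMEM14A the input values lay close together, at 53.8, 56.2 and 66.7 TPM. CDK2AP1, a binding partner of the cell-cycle kinase CDK2, had footprints of 26.1, 4.40 and 3.66 TPM with input at 34.5, 31.5 and 43.3 TPM. LYSMD2, CDCA4 and RGS10 were also named by the rule, with pair means of -2.45, -2.09 and -1.79. MT1A, a metallothionein with near-identical relatives, rested on 5, 1 and 0 footprint reads.

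**Figure D2:**
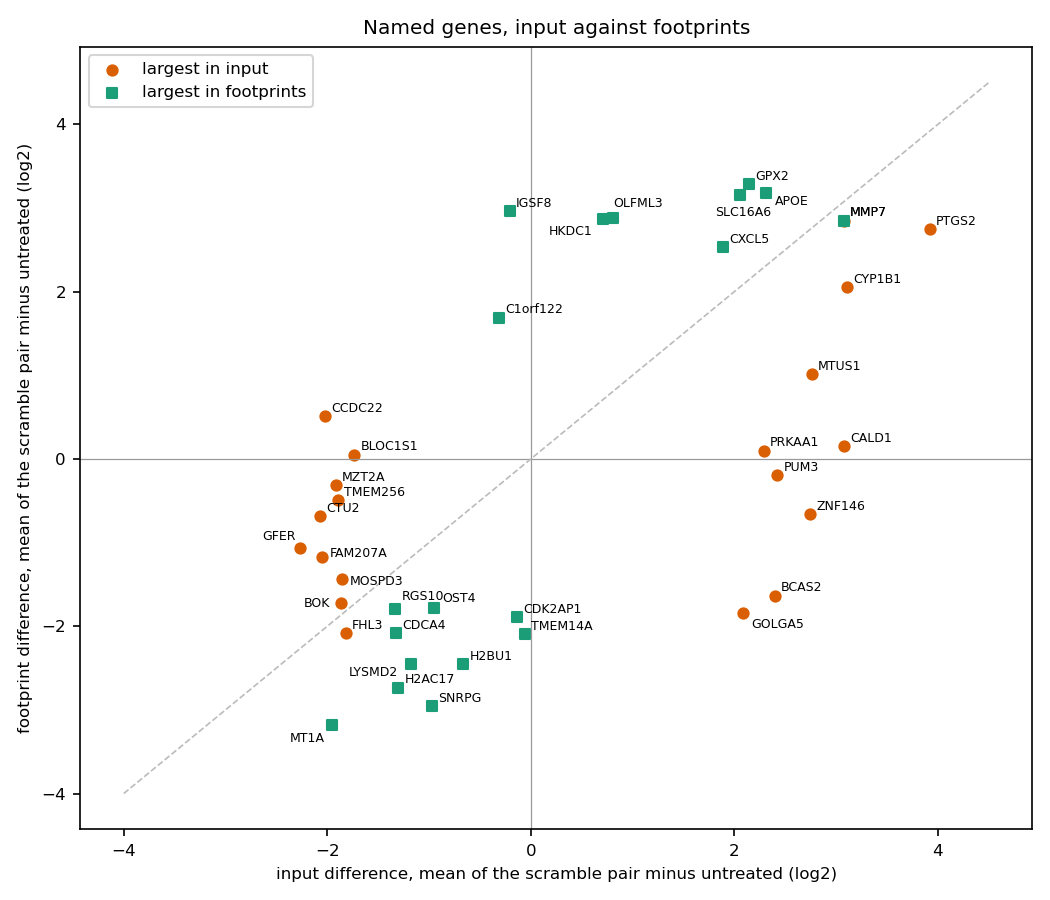
Pair-mean difference of scramble from untreated in input (x axis) and in footprints (y axis), both in log2 units, for the 10 genes per direction with the largest values in input (circles) and the largest reported in footprints (squares); the dashed line marks equal differences. Genes largest in input on the higher side spread from GOLGA5 at -1.85 to MMP7 at 2.85 in footprints, and PTGS2, CYP1B1 and MMP7 are among those high in both.

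The size counts of the 2 assays overlapped in few genes, though in a larger share of each list than of all genes. On the higher side 33 genes (0.394% of those analysed) were counted in input and in footprints, which is 8.85% of the input list and 12.5% of the footprint list. On the lower side 12 genes (0.143%) were, which is 6.94% and 5.85% of the lists. Over all genes analysed, 3.15% were counted higher in footprints and 4.45% in input, and 2.45% and 2.06% were counted lower. Counting in both assays was no part of the rule for named genes. Genes named for it were picked after their values were seen, although some, such as BOK and MT1A, also fall under the rule. HSP90B1 and DNAJC3 of the 33 are in the list of endoplasmic reticulum (ER) chaperones and unfolded protein response genes. HSP90B1 (chromosome 12, 103930410 to 103947926), the ER chaperone GRP94, had input of 4.06, 50.01 and 25.6 TPM on 21, 224 and 117 reads and footprints of 30.7, 64.5 and 39.3 TPM on 179, 541 and 163 reads. Scramble 1 was highest and scramble 2 intermediate in both, with footprint read ratios of 2.78 (interval 2.34 to 3.31) and 2.04 (interval 1.64 to 2.54). DNAJC3, an ER cochaperone that also inhibits the kinase PKR, had input of 4.08, 31.4 and 12.3 TPM and footprints of 4.02, 8.66 and 7.90 TPM. HSPA13, a microsomal member of the HSP70 family, had input of 1.83, 37.3 and 13.1 TPM and footprints of 11.9, 34.6 and 18.2 TPM. AGR2, a protein disulfide isomerase of secretory epithelia, had footprints of 25.2, 213 and 43.4 TPM, and TMED5, a cargo receptor of the early secretory pathway, had 1.71, 7.96 and 3.77 TPM. In TPM scramble 2 lay between the other 2 controls in these genes, while by centred footprint reads scramble 2 was slightly the higher of the pair in DNAJC3.

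The HSP90B1 promoter is shown because it holds the ER stress response element, the site through which ATF6 and NF-Y are known to act. The window is 250 bases before to 50 after the first listed RefSeq start on GRCh38.p14 (chr12:103930160-103930459, plus strand), and capitals mark its 2 matches, one on each strand, each made of CCAAT and CCACG with 9 bases between them. Both strands were searched, and 0.0806% of the 27305 promoters hold the motif.

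HSP90B1: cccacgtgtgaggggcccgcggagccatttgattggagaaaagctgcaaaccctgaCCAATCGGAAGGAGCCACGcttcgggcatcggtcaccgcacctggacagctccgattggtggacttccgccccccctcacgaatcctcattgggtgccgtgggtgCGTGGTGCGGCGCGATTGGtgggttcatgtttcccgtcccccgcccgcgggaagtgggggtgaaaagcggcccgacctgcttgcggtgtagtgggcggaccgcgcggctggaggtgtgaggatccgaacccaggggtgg

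Of the 21 ER chaperone and unfolded protein response genes with a promoter entry, 6 hold it, CANX and XBP1 among them. CANX, the lectin chaperone calnexin, had footprints of 77.9, 182 and 56.6 TPM, at which scramble 2 was below the untreated level before centring and 0.22 above it after. XBP1, a transcription factor of the unfolded protein response, had footprints of 16.3, 35.1 and 26.1 TPM, higher in both scrambles. Of 23 genes of this list analysed, 0 passed the test, 15 were higher than untreated in both scrambles in input and 17 in footprints, and 2 were lower in each. By that count 33.6% of all genes were higher in input and 29.9% in footprints, and 40.5% and 35.4% were lower. The medians of the list were 0.99 for scramble 1 and 0.15 for scramble 2 in input, and 1.45 and 0.27 in footprints. Those of all genes were -0.08, -0.06, -0.07 and -0.03. In 20 of the 23 in input and 21 in footprints, scramble 1 was above scramble 2, against 4131 and 4169 of all 8378 genes.

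Other genes counted in both assays encode cell-surface and secreted proteins. CDH1, the epithelial adhesion protein E-cadherin, had input of 1.25, 27.4 and 7.54 TPM and footprints of 1.85, 19.3 and 7.79 TPM, with 3, 57 and 16 input reads. CNTN1, the neural adhesion protein contactin 1, had input of 10.1, 117 and 50.1 TPM and footprints of 14.4, 66.9 and 23.6 TPM. In these 2 genes both scrambles lay above the untreated sample, as the size rule requires. CDH1 and CNTN1 were still higher in shM16 input, at 79.4 and 158 TPM. ITGA2, the collagen-binding integrin alpha 2 subunit, had footprints of 5.12, 30.6 and 7.99 TPM. TFRC, the transferrin receptor that takes up iron, had input of 31.5, 145 and 93.7 TPM and footprints of 72.0, 140.2 and 93.5 TPM, with at least 97 reads in every control library, the best-covered of the 33. SELENOI, an enzyme of phosphatidylethanolamine synthesis, had footprints of 12.1, 24.8 and 21.4 TPM, and ATP2B1, a plasma membrane calcium pump, had 8.98, 31.1 and 13.6 TPM. F11R, CLDN23 and A4GALT were listed at 0 in untreated footprints and rested on 1 to 9 footprint reads in the scrambles. On the lower side, TP53I3, a quinone oxidoreductase known as a p53 target, had input of 130.4, 44.2 and 65.7 TPM and footprints of 127, 43.9 and 27.3 TPM. FADD, the adaptor of death receptors, had input of 41.5, 17.1 and 15.1 TPM and footprints of 64.4, 12.8 and 16.6 TPM, but the clones stood near the untreated sample at 51.3 and 53.2 TPM and the sheIF4E2 knockdowns at 12.5 and 9.99. METTL5, the 18S rRNA m6A methyltransferase, had footprints of 22.7, 7.08 and 4.41 TPM. CAMK1, BOK, C12orf73 and MT1A had scramble 2 footprints listed at 0.

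**Figure D3:**
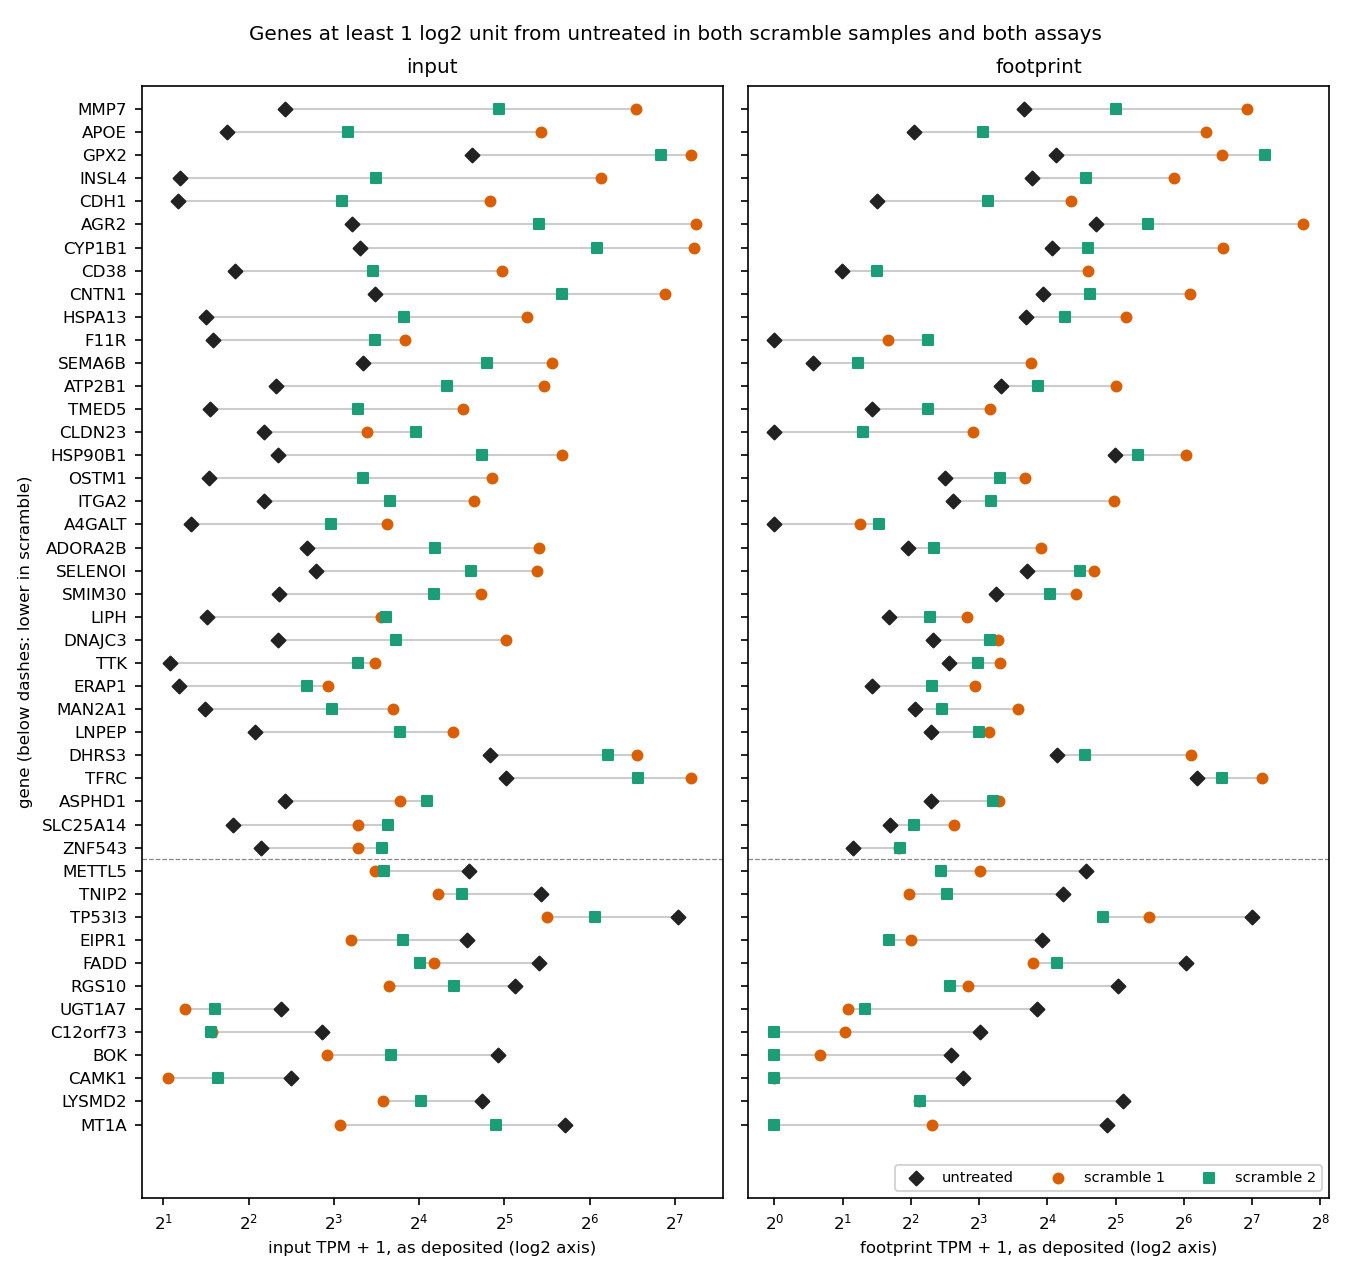
Input and footprint levels (TPM + 1, log2 axes, as deposited) of the 33 higher and 12 lower genes in untreated cells (diamonds), scramble 1 (circles) and scramble 2 (squares). That the untreated level lies outside the scramble pair follows from the rule that chose the genes. In input scramble 1 is the farther of the pair from untreated for most of the higher genes.

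TE set footprints against input in the same samples. CFD, complement factor D, had input of 46.0, 19.3 and 30.7 TPM and footprints of 9.26, 32.2 and 15.6 TPM, and its TE pair mean was 2.86 (SE 0.85, limma adjusted p = 0.999). LAMA5, the laminin alpha 5 chain, had footprints of 11.5, 37.5 and 20.1 TPM on 73, 343 and 91 reads with input of 51.0, 34.0 and 46.9 TPM, and differences in TE of 2.698 and 1.93. PLXNB2, a semaphorin receptor, had footprints of 14.8, 37.4 and 23.0 TPM with input of 76.6, 55.1 and 69.7 TPM, and TE differences of 2.25 and 1.79. In LAMA5 and PLXNB2 input differed less, and footprints of both scrambles were above the untreated level. CLCN7, a lysosomal chloride transporter, had TE differences of 1.93 and 2.60, and ETHE1, a mitochondrial sulfur dioxygenase, 2.37 and 1.86. On the lower side BCAS2 had TE differences of -3.08 and -4.98, ZNF146 -4.25 and -2.56 and CALD1 -3.19 and -2.66. LSM3, an Sm-like protein of U6 snRNP, had footprints of 48.1, 17.2 and 4.70 TPM and input of 13.6, 33.1 and 26.4 TPM. HSP90AA1, the cytosolic chaperone HSP90 alpha, had the same shape on many more reads, with input of 46.2, 221 and 144 TPM on 93, 386 and 256 reads and footprints of 463, 261 and 231 TPM. Its TE differences were -2.56 and -1.56, and its input in the other 5 samples was 94.2 to 160.3 TPM, so the untreated input was again the lowest.

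The genes that handle a hairpin showed no common direction. Of 19 genes of the RNA interference list analysed, 0 passed the test, 7 were higher and 6 lower than untreated in both scrambles in input, and 5 and 8 in footprints. DROSHA, the nuclear nuclease of microRNA processing, had input of 7.81, 4.88 and 13.6 TPM, and XPO5, the exportin that carries hairpins, had 9.26, 6.89 and 14.5 TPM. In both genes scramble 1 was below and scramble 2 above the untreated sample. DICER1, which trims the hairpin, had input of 3.795, 7.38 and 7.23 TPM and footprints of 4.602, 2.59 and 4.23 TPM. AGO2, the slicing Argonaute, had input of 24.1, 14.02 and 22.2 TPM, and TARBP2, a partner of Dicer, had footprints of 7.68, 10.7 and 11.6 TPM on 14, 28 and 15 reads. TNRC6A, a scaffold of silencing complexes, had input of 3.71, 8.11 and 13.03 TPM and a pair mean of 1.03 (SE 0.67, limma adjusted p = 0.858). Among sensors of double-stranded RNA, 9 of 18 were analysed and 0 passed, with 1 higher and 2 lower in input. The pair-mean input median of the interference list was -0.09, and it turned to 0.15 with TPM as deposited. EIF2AK2, the kinase PKR, had input of 3.44, 13.8 and 8.31 TPM and footprints of 5.08, 5.94 and 2.29 TPM. MAVS, the mitochondrial adaptor of RNA sensors, had input of 47.6, 30.0 and 33.3 TPM, lower in both scrambles. METTL16 and EIF4E2, the genes depleted elsewhere in the series, had input of 12.8, 11.1 and 14.1 and of 14.7, 8.47 and 21.4 TPM here.

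Interferon and NF-kB genes were mostly higher in scramble 1 than in scramble 2. Of 12 interferon response genes analysed out of 32, 0 passed, and 5 were higher and 4 lower in both scrambles in input. IFITM2, an antiviral membrane protein, had input of 16.8, 77.6 and 36.1 TPM, and ISG15, a ubiquitin-like protein, 11.7, 6.74 and 6.61 TPM on 4, 2 and 2 reads. Footprint medians of this list were 0.94 for scramble 1 and -0.04 for scramble 2. In footprints 10 of the 12 genes were higher in scramble 1 than in scramble 2, against 4169 of all 8378 genes. Of 17 NF-kB and cytokine genes, 0 passed, and the input medians were 1.26 and -0.33. IL6, an inflammatory cytokine, had input of 2.45, 24.02 and 12.5 TPM, and its footprints were listed at 0 in untreated cells and scramble 2 and at 19.6 TPM in scramble 1, with 22.5 TPM in clone 1. CXCL5 input was 161, 1433 and 350.5 TPM. In contrast RELB, an NF-kB subunit, had input of 43.7, 18.4 and 26.6 TPM, lower in both. In footprints, the NF-kB medians were 0.70 and -0.44, and 16 of the 17 genes were higher in scramble 1 than in scramble 2. With TPM as deposited, the median of the pair mean in footprints turned from above to below 0 for both lists, to -0.38 for interferon and -0.40 for NF-kB genes.

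Lipid synthesis and lysosomal genes followed the same split. Cholesterol genes (22 analysed, 0 passed) had medians of 1.03 in scramble 1 and -0.01 in scramble 2 in input and 1.37 and 0.09 in footprints. INSIG1, which retains the SREBP escort in the ER, had footprints of 23.4, 50.03 and 36.3 TPM. Fatty acid genes (14 analysed, 0 passed) had medians of 1.37 and 0.13 in input and 1.31 and 0.20 in footprints. SCD, the stearoyl-CoA desaturase, had input of 261, 1238 and 389 TPM on 540, 2221 and 713 reads and footprints of 133, 812 and 111 TPM. FASN, the fatty acid synthase, went the other way in input at 137, 72.1 and 107 TPM, with both scrambles below the untreated sample. Lysosomal and autophagy genes (25 analysed, 0 passed) had footprint medians of 1.39 and 0.14. NPC1, which exports cholesterol from lysosomes, had footprints of 21.05, 104 and 19.2 TPM and PSAP, the saposin precursor, 365, 1002 and 366 TPM. The 13 mRNAs of the mitochondrial genome (0 passed) had medians of 0.96 and -0.30 in input and 1.89 and -0.21 in footprints. Summed over that genome they came to 79086, 190868 and 79641 TPM in input, with 211308 TPM in shM16, so scramble 1 and its table mate stood apart from the other 2 controls.

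Replication-dependent histones stood lower in both scrambles and both assays. Of 40 histone genes analysed out of 52, 0 passed the test, while 38 were below untreated in both scrambles in input and 38 in footprints, against 40.5% and 35.4% of all genes. Their medians were -1.61 for scramble 1 and -0.73 for scramble 2 in input, and -1.18 and -0.83 in footprints. The median of the pair mean was -1.21 in input and -1.01 in footprints, and quantile normalization brought it to -0.60 and -0.63. These genes are near-identical copies of one another, so reads may be shared among them and members are not independent. H2AC17 (chromosome 6, 27892699 to 27893185), a histone H2A gene, had input of 374, 126 and 253 TPM and footprints of 493, 35.3 and 71.3 TPM on 107, 11 and 11 reads, with a footprint pair mean of -2.73 (SE 0.64, limma adjusted p = 0.989). H4C9, a histone H4 gene, had input of 264, 76.8 and 193 TPM and footprints of 361, 82.0 and 78.0 TPM. H2BC17, a histone H2B gene, had footprints of 869.9, 368 and 162 TPM, where scramble 2 was the lower of the pair. H2BC18, another H2B gene, was the one histone above untreated in both scrambles in footprints after centring, at 16.9, 24.9 and 13.8 TPM. H2BU1, an H2B gene outside the main clusters that the list does not hold, had footprints of 64.6, 6.60 and 8.01 TPM and input of 33.2, 14.8 and 40.0 TPM. In the knockdowns against the clones the histone median was also below 0, at -0.41 in input and -0.61 in footprints, with 4 of 40 genes above 0 in each.

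The H2AC17 promoter is shown because it holds the octamer ATTTGCAT, the element that OCT1 is known to use in histone genes. The window is again 250 bases before to 50 after the RefSeq start on GRCh38.p14 (chr6:27893136-27893435, minus strand), with the match in capitals. Both strands were searched, and 1.8% of the 27305 promoters hold the octamer.

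H2AC17: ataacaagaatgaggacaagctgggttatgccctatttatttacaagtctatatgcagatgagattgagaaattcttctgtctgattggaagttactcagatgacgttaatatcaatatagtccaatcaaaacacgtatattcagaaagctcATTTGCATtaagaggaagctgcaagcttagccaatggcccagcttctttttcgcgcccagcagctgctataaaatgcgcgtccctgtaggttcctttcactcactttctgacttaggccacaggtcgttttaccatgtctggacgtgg

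Of 34 histone genes with a promoter entry, 15 hold it. Histone mRNA is made in S phase, and other genes of the cell cycle were described beside it. Of 26 G1/S and replication genes, 0 passed, and 18 were lower and 1 higher in both scrambles in footprints, with medians of -0.52 and -0.26. Among all genes 35.4% were lower and 29.9% higher in footprints by that count. UHRF1, a chromatin protein that maintains DNA methylation, had footprints of 44.1, 12.1 and 8.59 TPM, MCM6, a subunit of the replicative helicase, 74.4, 35.9 and 19.8 TPM, and CCNE1, cyclin E1, 13.7, 3.17 and 2.56 TPM. Of 24 G2/M and mitosis genes, 0 passed, and 17 were lower and 3 higher in footprints, with medians of -0.45 and -0.27. UBE2C, the mitotic ubiquitin-conjugating enzyme, had footprints of 283, 142 and 93.2 TPM. TOP2A, topoisomerase II alpha, had footprints of 126, 105 and 88.6 TPM with input of 14.3, 70.2 and 58.4 TPM. After centring, TOP2A footprints lay slightly above untreated in both scrambles. In input the G2/M medians were -0.37 and 0.03, and the median of the pair mean, -0.08, turned to 0.16 with TPM as deposited.

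Most ribosomal protein genes also stood below untreated in both scrambles. Of 46 large-subunit genes analysed, 0 passed, and 36 were lower in both scrambles in input and 32 in footprints, with medians of -0.65 and -0.35 in input and -0.69 and -0.56 in footprints. Of 31 small-subunit genes, 0 passed, and 24 and 25 were lower, with medians of -0.79 and -0.30 in input and -0.72 and -0.54 in footprints. By that count 40.5% of all genes were lower in input and 35.4% in footprints. RPS2 had input of 1108, 519 and 805 TPM and footprints of 292, 96.1 and 60.8 TPM, and RPL39, one of the shortest, had footprints of 121, 16.9 and 25.2 TPM. RPL3, on 650, 258 and 440 input reads, had 349.5, 160.1 and 268 TPM. RPS12 had footprints of 843, 171 and 188 TPM but input of 1546, 1198 and 1923 TPM. Quantile normalization shrank the pair-mean medians of the large-subunit genes from -0.49 to -0.15 in input and from -0.64 to -0.34 in footprints, and those of the small-subunit genes from -0.53 to -0.13 and from -0.67 to -0.32. Many of these genes have processed pseudogenes with which reads may be shared. Their TE medians were within 0.12 of 0 in both scrambles. Nuclear-encoded oxidative phosphorylation genes (51 analysed, 0 passed) had footprint medians of -0.30 and -0.51, and mitochondrial ribosomal proteins (75 analysed, 0 passed) -0.36 and -0.27. Glycolysis genes (17 analysed, 0 passed) were lower in both scrambles for 14 in input, with medians of -1.04 and -0.57. PFKP, a phosphofructokinase, was 1 of them, at 145, 54.8 and 126 TPM. In footprints the glycolysis medians were -0.18 and -0.24. Quantile normalization shrank the pair-mean median of this list from -0.77 to -0.39 in input and from -0.27 to -0.03 in footprints.

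The remaining lists also had 0 genes past the test. Integrins stood higher in footprints, with 8 of 10 higher and 0 lower in both scrambles and medians of 1.12 and 0.62, beside 5 higher and 3 lower in input. Drug efflux genes had 7 of 8 higher and 0 lower in footprints, with medians of 1.44 and 0.57, ABCC2 among them. Extracellular matrix genes had 18 of 38 higher and 9 lower in footprints but 8 higher and 21 lower in input, and 22 higher and 4 lower in TE, where 34.1% of all genes were higher and 32.4% lower. The TE median of the pair mean of these matrix genes turned from 0.52 to -0.26 with TPM as deposited. Metallothionein and metal transport genes had 8 of 15 higher and 4 lower in input, and antigen presentation genes had footprint medians of 1.08 and -0.11. Immediate early genes had 17 of 26 lower and 2 higher in input, with medians of -0.80 and -0.29. Cytosolic heat shock proteins had 12 of 18 lower and 1 higher in footprints, but 8 higher and 9 lower in input, where HSP90AA1 was among the higher. Translation factors had 28 of 47 lower and 14 higher in input, and 26 lower and 8 higher in footprints, where the all-gene shares were 40.5% and 33.6%, and 35.4% and 29.9%. Lung epithelial genes had 7 of 16 higher and 4 lower in input and 8 higher and 4 lower in footprints, and m6A genes had 8 of 20 higher and 4 lower in input and 4 higher and 9 lower in footprints. Targets of p53 had 7 of 19 higher and 6 lower in input and 6 and 8 in footprints, and integrated stress response genes had 7 of 24 higher and 9 lower in input and 9 and 10 in footprints. Hypoxia genes had 3 of 11 higher and 4 lower in input and 4 and 3 in footprints. Aryl hydrocarbon receptor targets had 4 of 9 higher and 4 lower in input, and 2 of the 9, CYP1B1 being one, met the size rule on the higher side. Their pair-mean input median was -0.03, and quantile normalization moved it to 0.48. With TPM as deposited the pair-mean footprint medians of the matrix, metal, antigen presentation and lung epithelial lists turned below 0, and the input median of the cytosolic heat shock list turned above it.

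**Figure D4:**
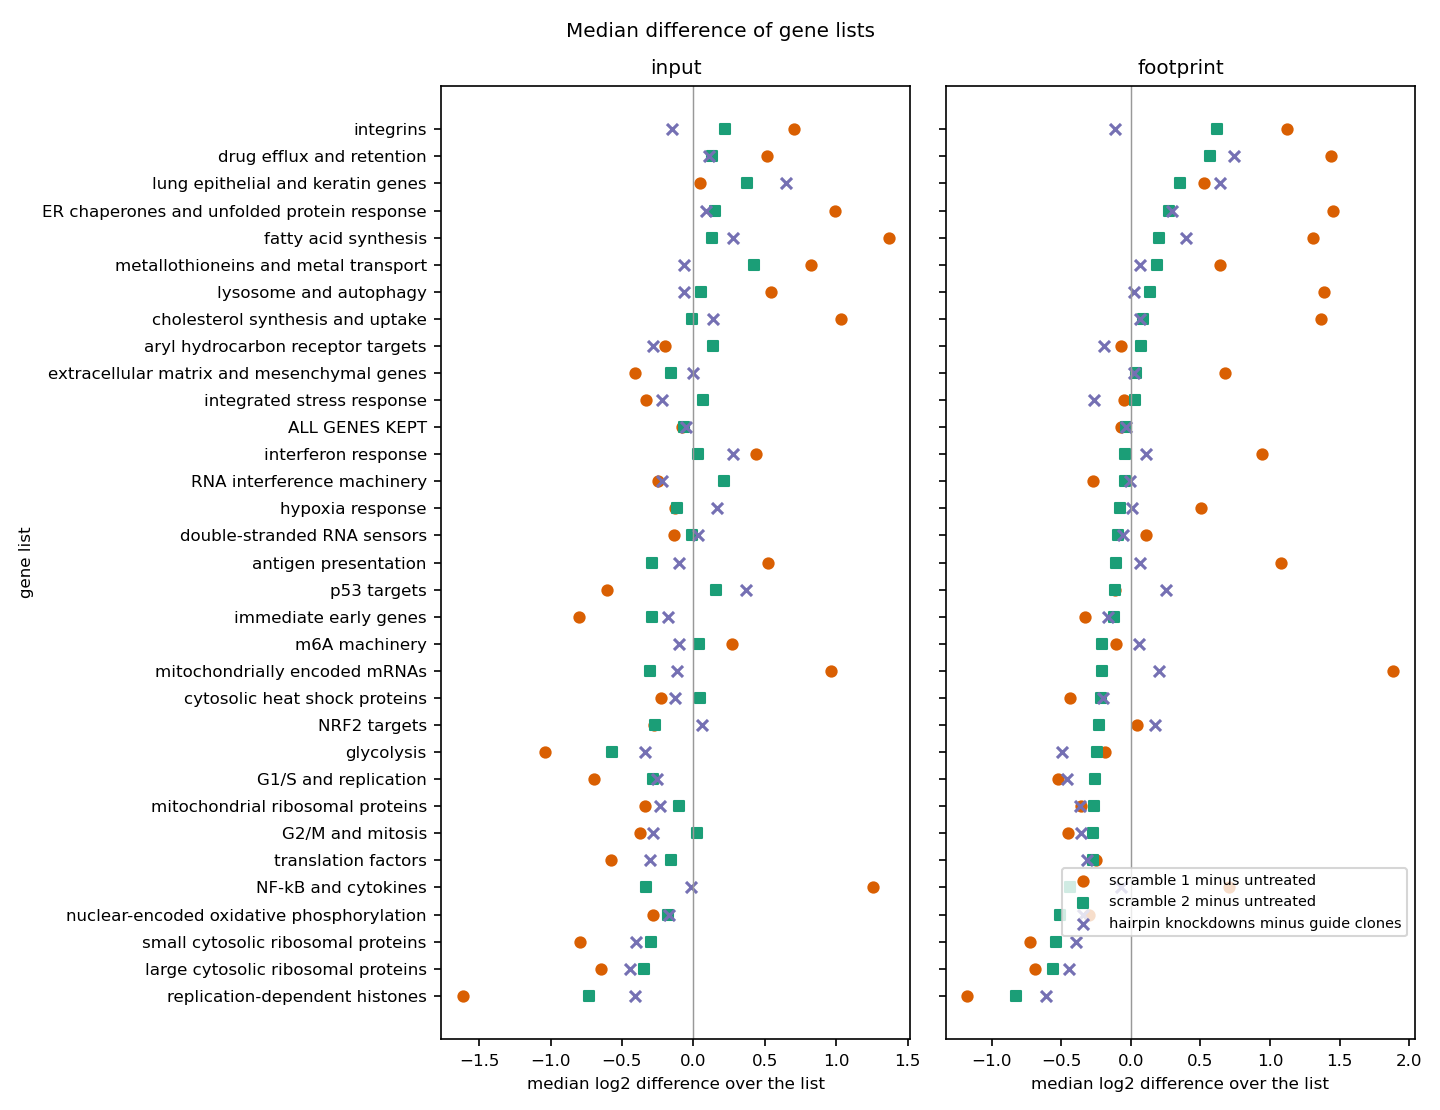
Median log2 difference of each gene list in input and in footprints for scramble 1 minus untreated (circles), scramble 2 minus untreated (squares) and the mean of 3 hairpin knockdowns minus the mean of 2 guide clones (crosses). Histones and ribosomal proteins lie left of 0 in all 3, while the mitochondrially encoded mRNAs reach 1.89 in scramble 1 footprints and -0.21 in scramble 2.

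The differences moved with gene length, and genes counted as lower were short. Length was taken from the TPM steps, as a multiple of the median gene. In the shortest of 5 equal groups of genes, with a median length of 0.414, the median footprint difference was -0.28 for scramble 1 and -0.34 for scramble 2, and in the longest, at 2.10, it was 0.04 and 0.14. In input the shortest group was at -0.36 and -0.22 and the longest at 0.19 and 0.05. Knockdowns minus clones ran the same way, from -0.26 to 0.11 in footprints and from -0.11 to -0.0045 in input. Across genes, the Spearman correlation of length with the footprint difference was 0.125 for scramble 1, 0.231 for scramble 2 and 0.220 for the knockdowns minus the clones, a description over genes of shared libraries. The genes lower in footprints by size had a median length of 0.537 and those lower in input 0.714. Among the histones H2AC17 stood at 0.0949 of the median length, and the part of length in the differences of histones and ribosomal proteins was not tested.

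**Figure D5:**
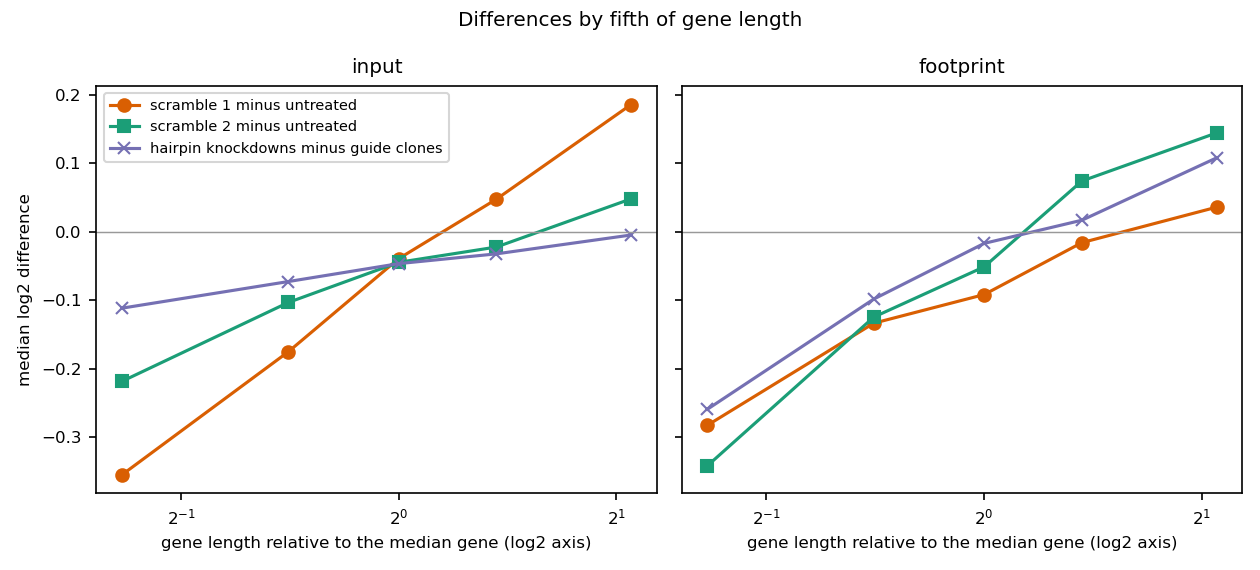
Median log2 difference (y axis) in 5 groups of genes of rising length (x axis, relative to the median gene, log2 axis), in input and in footprints, for both scrambles against untreated and for hairpin knockdowns against guide clones. All 6 lines run upward from the shortest to the longest genes, for example from -0.34 to 0.14 for scramble 2 in footprints.

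The genes that differed most between the scrambles show where the delivery controls diverge. PLA2G4A, the cytosolic phospholipase A2 that frees arachidonic acid for cyclooxygenases, had input of 1.76, 53.8 and 5.97 TPM, and shM16 stood at 43.5 TPM. VTN, the plasma adhesion protein vitronectin, had 2.66, 36.8 and 4.51 TPM, and AQP3, a water and glycerol channel, had 2.61, 34.1 and 5.91 TPM. CPS1, a urea-cycle carbamoyl phosphate synthetase, had footprints of 8.15, 67.3 and 4.87 TPM, with 40.6 TPM in shM16, and MSMO1, a sterol oxidase, had 12.6, 89.8 and 3.32 TPM. In each of these scramble 2 lay far below scramble 1. On the other side JUNB, an immediate early transcription factor, had input of 174, 20.8 and 216 TPM, with 25.2 TPM in shM16 and 130.1 to 210.0 in the other knockdowns and clones. GADD45B, a stress-induced signalling protein, had 55.7, 4.10 and 59.0 TPM and S100A2, an epithelial calcium-binding protein, 29.5, 1.89 and 22.2 TPM, low in scramble 1 and shM16 alone. KRT80, an epithelial keratin, had 135, 18.8 and 139 TPM. Footprints of HES7 and CTC1 were high in the table of scramble 2. HES7, a segmentation clock repressor, had footprints of 25.1, 2.49 and 248 TPM, with 222 and 157 TPM in the sheIF4E2 knockdowns, while its input was 55.2, 54.4 and 96.0 TPM. CTC1, a telomere maintenance protein, had 35.2, 15.2 and 311 TPM, with 246 and 161 TPM in those knockdowns.

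The 5 remaining samples allow a look that shares no library with the control comparison. The 3 hairpin knockdowns were averaged and set against the 2 guide clones, where hairpin, target and table cannot be told apart. Of the 264 genes higher in footprints by size, 221 were analysed in all 8 samples, and 170 of them (76.9%) were higher in the knockdowns than in the clones, with a median of 0.42. Of the 205 lower genes, 183 were, and 38 (20.8%) were higher, with a median of -0.52. Over all 7989 genes the share was 47.1%. In input the shares were nearer the all-gene share of 44.8%, with 210 of 359 higher genes (58.5%, median 0.11) and 70 of 162 lower genes (43.2%, median -0.11). In TE they were 54.7% for the higher and 43.0% for the lower genes, against 49.3% of all. Of the genes counted in both assays, 30 higher and 9 lower ones were listed in all 8 samples. In footprints 23 of the 30 were above the clones (median 0.84) and 3 of the 9 (median -0.006). In input 19 of the 30 were (median 0.42) and 2 of the 9 (median -0.36). The footprint lists by size thus went the same way in samples that the size rule did not use. The difference of their shares from those in input was not tested. The shorter genes of the lower footprint list and the shared tables of scrambles and knockdowns move with this, and their part was not tested. Of the ER list, 19 of 23 genes were higher in the knockdowns in footprints (median 0.30), of the large ribosomal proteins 4 of 46 (median -0.45), and of the G1/S genes 0 of 25 (median -0.46). Other lists with footprint medians above 0 in the scrambles did not all go one way in the knockdowns. Fatty acid, cholesterol, lysosomal and matrix genes stood higher mainly in scramble 1. Their scramble 2 footprint medians were only 0.20, 0.09, 0.14 and 0.04. Drug efflux genes had 6 of 8 above the clones (median 0.74) and fatty acid genes 12 of 14 (median 0.40). Integrins with 4 of 10 above the clones (median -0.11) and cholesterol genes with 11 of 20 (median 0.06) were near 0. So were lysosomal genes with 13 of 24 (median 0.03) and matrix genes with 19 of 35 (median 0.02).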

How the data were processed

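Ribosome footprint and input libraries of A549 cells were analysed from 3 deposited tables, whose values the authors deposited as TPM, going by the names of the tables and by column sums under the TPM total. How TPM was calculated is not given in the sources used here. The submitters' processing notes name cutadapt 2.8, Bowtie 1.3.0, Bowtie2 2.2.5, STAR 2.7.5c, featureCounts 2.0.1 and the build GRCh38, with no role for each. Every gene listed has at least 1.00 TPM in input, so genes below that level in a sample are missing from its table.

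Genes listed in all 3 controls with a mean of at least 1 TPM in both assays were kept. log2(TPM + 1) was centred on each library's median and fitted in limma 3.58.1 (R 4.3.3) with 4 group means over 6 libraries. This leaves 2 residual degrees of freedom, both from the scramble pair, and p-values were adjusted by Benjamini-Hochberg over 8378 genes at 0.05. A fold on this scale understates the change of low genes. Whole reads were recovered from the TPM steps in 11892 of 11892 genes with 2 or more values above 0 (relative tolerance 1e-09), save for a multiplier that all libraries of a gene share, and served for counting intervals and for voom. Python 3.11.15 (numpy 2.4.6, pandas 2.3.3, scipy 1.17.1, matplotlib 3.10.9) did the rest.

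Input and footprints of the same sample were paired. The difference between scrambles correlated between the assays at r = 0.30 across 8378 genes, which are not independent replicates. RefSeq on GRCh38.p14 held 12525 of 12587 symbols and promoters for 6883 genes kept.

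The text names, per assay and direction, the 10 genes whose smaller change of the 2 scrambles was largest, genes with the largest difference between scrambles at a mean of 10 TPM or more, up to 4 members of each of 34 gene lists, and always the RNA interference genes, METTL16, EIF4E2 and CYP1B1. A few genes that this rule covers are not reported here. The members and lists were chosen with earlier results of these data known. The fit was tested on simulated data. Alternatives covered the pseudocount, centring, filters, spread, size threshold, each scramble left out and the pairing.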

Additional observations from a re-analysis of the deposited data

How the results depend on the processing

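No fit of any kind called a gene: limma gave 0 higher and 0 lower in each assay and in TE with every pseudocount, scaling, filter and spread tried. Sharing the spread of all 16 libraries gave the lowest adjusted p values, 0.143 in input, 0.0824 in footprints and 0.572 in TE. With the replicate block that pairs input and footprint of a sample, TE also had 0 higher and 0 lower, and the block changed no call. Counts by size moved more. In input, the higher and lower genes numbered 1004 and 842 at a size threshold of 1.5-fold, 791 and 52 without centring, and 130 and 46 at a mean of 10 TPM, and the higher genes 587 with a pseudocount of 0.1. In footprints they numbered 735 and 759 at 1.5-fold, 405 and 327 with the pseudocount of 0.1, 69 and 1078 without centring, and 56 and 86 at 10 TPM. In TE they numbered 1092 and 1103 at 1.5-fold, 71 and 1958 without centring, and 86 and 167 at 10 TPM. Leaving out each scramble in turn gave 503 to 1394 higher and 389 to 1440 lower genes in input, 659 to 1090 and 780 to 819 in footprints, and 1027 to 1478 and 1057 to 1432 in TE, because 1 sample then has to pass in place of 2. Alternatives for the genes counted in both assays were chosen after seeing the data. The higher ones numbered 63 with the pseudocount of 0.1, 10 without centring and 15 at 10 TPM, and 69 to 441 with a scramble left out. The lower ones numbered 26 with that pseudocount, 6 at 10 TPM and 20 without a filter, and 81 to 257 with a scramble left out. All 373 genes higher in input were still counted with the pseudocount of 0.1 and without centring, and 305 with quantile normalization. The SD between scramble 2 and untreated footprints was 1.21 with the pseudocount of 0.1 against 0.79. No single gene gained a call, and 71 of 2527 values of single genes under alternatives had the opposite sign. Of 99 list medians in input, footprints and TE, 68 moved by more than the spread without centring (TE medians in every list), 28 with quantile normalization, 7 with the pseudocount of 0.1, 20 without scramble 1 and 22 without scramble 2. Depth limits footprints of scramble 2 most, where 1293 listed genes stand at 0 and the median gene has 7 reads.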

Other observations

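A gene enters a table only above a level in input, so some genes are listed on one side alone. Both scrambles list 722 genes that the untreated sample does not, and the untreated sample lists 273 that neither scramble does. At 10 TPM or more in both scrambles there were 5 of the former. IFNGR1, a chain of the interferon gamma receptor, stood at 33.0 TPM in scramble 1 and 13.1 in scramble 2. EDEM3, an enzyme of ER-associated degradation, stood at 18.4 and 11.4 TPM, and RANBP6, an importin-like protein, at 15.9 and 13.7. The others were SNX4, a sorting nexin, at 10.8 and 15.9 TPM, and TRNT1, which adds the CCA end to tRNAs, at 10.6 and 13.8. All 5 are listed in both sgM16 clones too, so they are missing from the untreated sample and not from its table. At 5 TPM or more in untreated cells alone among the controls there were 3, the tetraspanin TSPAN7 at 8.62 TPM, the interferon-induced IFITM3 at 5.34, a near-identical paralog of IFITM2, and the trefoil factor TFF1 at 5.15.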
